A study of Rattus norvegicus with 4 samples.

Results

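The cytochrome P450 and conjugating enzymes described here are the rat genes of the Cyp, Gst, Ugt, Sult, Ephx, Aldh and Akr families (without Cyp51, an enzyme of cholesterol synthesis), measured in kidney tubular cells after hydrogen peroxide (H2O2). Genes were chosen by family symbol, and a gene was kept when its brightest probe was well above background, in the scanner software's own judgement, on at least 1 array. This kept 64 of 118 such genes on the array: 24 of 53 Cyp, 14 of 15 Gst, 10 of 12 Aldh, 8 of 14 Akr, 3 of 11 Ugt, 3 of 11 Sult and both Ephx genes. In the series as a whole, 6028 of 8963 named genes were measured in this sense. Of the 64 genes, 43 were well above background on all 4 arrays, 5 on 3 arrays, 3 on 2 and 13 on a single array.

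The series title asks which molecules released by dying cells drive their neighbours to proliferate. NRK-52E is an established epithelial line from normal rat kidney with features of proximal tubule. All 4 cultures were grown to confluence in DMEM with 10% FBS and moved to DMEM for 1 h with 0 (control), 0.003, 0.006 or 0.009% H2O2, then washed with PBS and held 12 h in DMEM lacking serum before total RNA was taken, so the control was deprived of serum too. Each dose is 1 culture of 1 cell line on 1 single-colour Agilent array; there are no replicates, so differences between cultures cannot be told apart from differences between doses. Slide position followed dose, and position and dose cannot be told apart either.

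These enzymes handle foreign and internal small molecules in steps. P450s, monooxygenases that use haem and electrons from Por, add oxygen to a substrate; epoxide hydrolases, aldehyde dehydrogenases and aldo-keto reductases deal with the reactive epoxides, aldehydes and ketones that arise. Glutathione transferases, UDP-glucuronosyltransferases and sulfotransferases then attach glutathione, glucuronic acid or sulfate, which makes a product more soluble and ready for export. In the kidney the proximal tubule is the main site of this chemistry, and several of the genes are textbook targets of the transcription factors AHR (Cyp1a1) and NRF2 (Gsta and Akr1b genes). Lipid aldehydes formed by oxidants are among the substrates of the alpha class glutathione transferases, aldo-keto reductases and aldehyde dehydrogenases.

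A small group stood higher after H2O2, led by the aldo-keto reductases Akr1b8 and Akr1b1, the alpha class transferases Gsta1 and Gsta3, and the P450 Cyp3a9. Cyp3a9 was kept through the exposed arrays alone and had to lie above the control there. Akr1b8 was 8.18-fold above the control at 0.003% and Gsta1 was 3.75-fold above it. Cyp1a1, a classical AHR target, was 4.20-fold below the control at 0.009%. In the list as a whole, the shares of members at least 2-fold higher lay near those over all features, and the shares lower lay near or under them. Values below are the scanner's processed signal of each array in brightness units, not yet scaled between arrays, and then the log2 difference from the control after each array was scaled to its own 75th percentile. Where a gene was not well above background on one of the arrays compared, the difference is a bound, written "at least". The spot error is the scanner software's error of a spot, propagated to the difference; its median over members was 0.20 on the log2 scale, and it covers the reading of a spot and not the spread between cultures. No p-value was computed for a dose against the control.

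The arrays differed in brightness, which bears on every value at 0.009%. The 75th percentile of the 43379 noncontrol spots was 180 in the control and 168, 158 and 121 at the rising doses, while the RNA spike-ins were 0.07, 0.36 and 0.61 brighter than in the control on the log2 scale. Scaling to the 75th percentile raises an equal signal by 0.11, 0.19 and 0.57 over the control. Scaling to the spike-ins instead lowered each difference between signals well above background by 0.18, 0.55 and 1.18, and the median over all features was then -0.15, -0.47 and -1.02. Scaling to the array median lowered such a difference by 0.15, 0.31 and 0.56, with medians of -0.12, -0.24 and -0.40. In bulk RNA, fewer cells of a type and less RNA per cell cannot be told apart. The share of probes well above background ran from 51.8 to 54.9%, and none was saturated. The control array is shared by all 3 comparisons, so its error enters each of them.

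**Figure D1:**
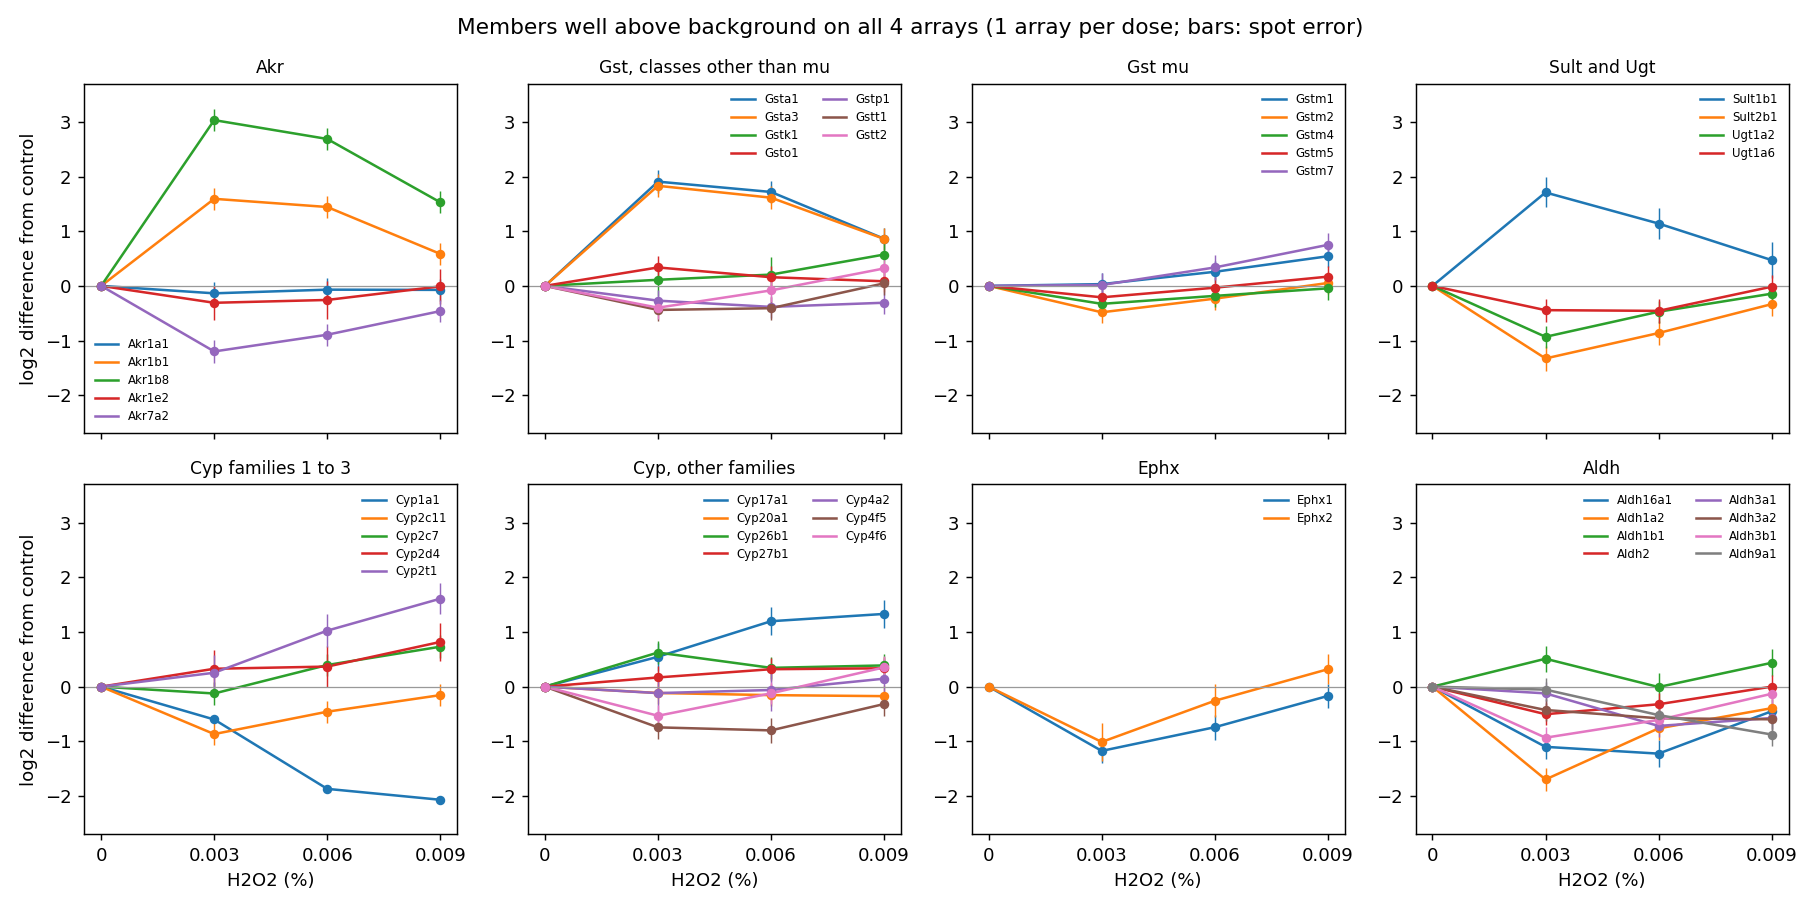
Log2 difference from the control (vertical axis) against the H2O2 dose in percent (horizontal axis) for the 43 members well above background on all 4 arrays, by family; each point is 1 array and each bar the spot error. Akr1b8, Akr1b1, Gsta1, Gsta3 and Sult1b1 stood highest at 0.003% and came nearer to the control at 0.009%, while Cyp1a1 stood lower at each further dose, to -2.07.

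Among the 55 members compared at 0.003%, 10 (18.2%) were higher by 2-fold or more and 8 (14.5%) lower by as much, with a median log2 difference of -0.13. Over all 20895 features compared, 14.9% were higher and 13.6% lower, with a median of 0.03. At 0.006%, 11 of 54 members (20.4%) were higher and 3 (5.56%) lower, beside 14.9% and 10.5% of 20677 features, and the medians were -0.10 and 0.01. At 0.009%, 11 of 60 members (18.3%) were higher and 1 (1.67%) lower, beside 16.5% and 7.4% of 21459 features, with medians of 0.32 and 0.13. Bounds made up 5, 4 and 8 of the higher members at the 3 doses. The split between higher and lower members moved with the scaling. Scaling to the array median gave 9 higher and 11 lower at 0.003%, 6 and 11 at 0.006%, and 3 and 9 at 0.009%. Scaling to the spike-ins gave 9 and 11, then 5 and 17, then 0 and 29. Quantile normalization gave 9 and 8, 7 and 5, and 5 and 4, and normexp 5 and 2, 5 and 1, and 1 and 1. Over all features, array median scaling put 11.9, 9.5 and 6.0% higher and 16.9, 18.3 and 22.6% lower at the 3 doses. The spike-ins put 11.4, 6.5 and 2.4% higher and 17.7, 26.5 and 50.8% lower. Quantile normalization put 12.9, 12.1 and 9.9% higher and 13.9, 11.9 and 10.9% lower. Normexp put 6.7, 6.0 and 4.4% higher and 6.2, 5.1 and 3.6% lower.

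The calls that held under all 4 other settings (array median, spike-ins, quantile normalization and normexp background correction) were few. At 0.003% they were Akr1b1, Akr1b8, Cyp3a9, Gsta1 and Gsta3 on the higher side and Akr7a2 and Aldh1a2 on the lower. At 0.006% they were Akr1b8, Cyp3a9, Gsta1 and Gsta3 on the higher side and Cyp1a1 on the lower. At 0.009% the only one was Cyp1a1, on the lower side. Cyp3a9 was kept through the exposed arrays alone, so the filter fixed its direction. It is left out when both arrays compared must be well above background.

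**Figure D2:**
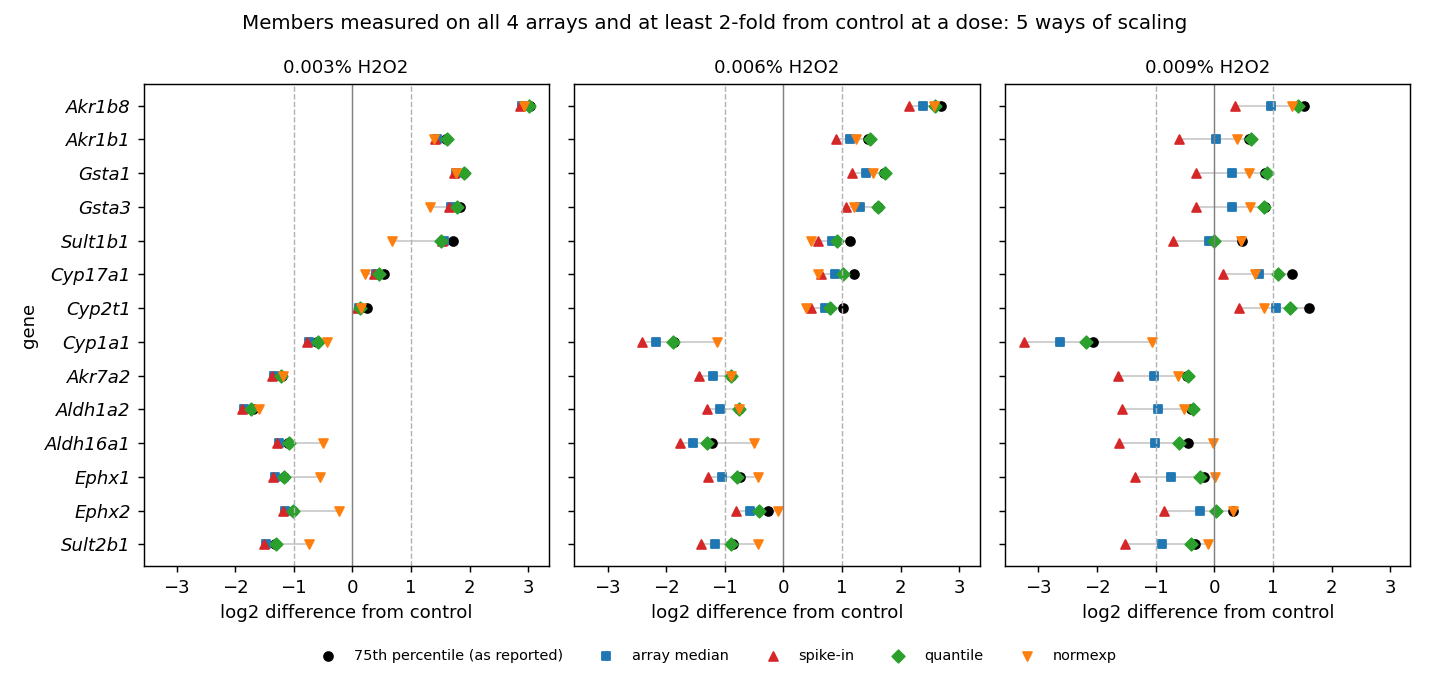
Log2 difference from the control (horizontal axis) under 5 ways of scaling or background correction, for the 14 members measured on all 4 arrays that passed 2-fold at a dose; dashed lines mark 2-fold. At 0.009% the Akr1b8 value ran from 0.35 with the spike-ins to 1.53 with the 75th percentile, and Cyp1a1 lay below -1 under all 5.

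Of the P450s that act on foreign compounds (families 1 to 3), 11 were measured. Cyp1a1, which oxidises polycyclic aromatic compounds, had signals of 207 in the control and 127, 49.7 and 33.2 at the rising doses. All 3 exposed cultures were below the control and in the order of the dose. The log2 differences were -0.60, -1.87 and -2.07, with a spot error of 0.07, since several spots carry this probe. At 0.009% the difference was -1.06 with normexp and -3.25 with the spike-ins. Cyp1b1, a P450 of the same family that also oxidises oestrogens, was well above background at 0.003% alone, with a signal of 12.1 there against 5.45 in the control, at least 0.34 higher on the log2 scale.

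Cyp3a9, a member of the subfamily that oxidises many drugs and steroids, gave the largest difference of the list at 0.003%. Its signals were 2.58 in the control, which was not well above background, and 129, 59.8 and 19.7 in the exposed cultures. It was kept through the exposed arrays alone, so it had to lie above the control there. The distance was smaller at each higher dose. The differences were at least 3.76, 2.73 and 1.52 on the log2 scale. With normexp, which draws dim signals together, they were 1.67, 1.10 and 0.78, and with the spike-ins the bound at 0.009% was 0.33.

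Cyp2t1, whose substrates are little described, read 18.8 in the control and 20.8, 33.5 and 38.5 in the exposed cultures. Its log2 differences were 0.25, 1.02 and 1.61, and at 0.009% the difference was 0.43 with the spike-ins. Cyp2d3, of a subfamily that oxidises basic drugs, read 5.30 in the control and 16.2 at 0.009%, at least 1.24 higher there, but 0.06 with the spike-ins. Cyp2b21 was well above background in the control alone. Its signal was 26.6 there against 6.59, 8.90 and 6.33. Kept through that array alone, it had to read lower on the others in the main scaling. The bounds on the log2 difference were -1.32, -0.88 and -0.82. At 0.009% the normexp value was 0.05, on the other side of 0. The other members of these families lay between -0.87 (Cyp2c11 at 0.003%) and 0.95 (a bound for Cyp2b3 at 0.009%).

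The P450s of family 4 and the Cyp2j subfamily turn over fatty acids and their oxygenated products. None of the 6 measured was at least 2-fold higher at any dose. Cyp2j3, which forms epoxides of arachidonic acid, was well above background in the control alone, with a signal of 30.0 against 2.12, 2.66 and 2.14. Kept through the control array alone, it had to read lower on the exposed arrays in the main scaling. The bounds on the log2 difference were -1.49, -1.05 and -0.99. Cyp2j4, of the same subfamily, read 28.1 in the control and 16.2, 9.23 and 13.3, all 3 lower. Its differences were -0.69 and -0.51 at 0.003 and 0.009%, and at 0.006%, where it was not well above background, the value of -0.96 is a bound, so a difference of 2-fold or more is possible there (the bound was -1.27 with array median scaling). Cyp4f5 and Cyp4f6, of a subfamily that hydroxylates leukotrienes and other fatty acids, differed by -0.74 and -0.53 at 0.003% and by -0.32 and 0.35 at 0.009%, and the last value was negative with array median and spike-in scaling.

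The P450s of steroids and of vitamins A and D lay above the control in the main scaling. Cyp11b3, Cyp21a1 and Cyp26a1 were kept through exposed arrays alone and had to lie above it where compared. Only Cyp17a1, Cyp26b1 and Cyp27b1 were well above background in the control. Cyp17a1, the hydroxylase and lyase on the way to androgens and cortisol-type steroids, read 24.1 without H2O2 and 32.8, 48.5 and 40.8 at the rising doses. Its differences were 0.55, 1.20 and 1.33 with a spot error of 0.25 at 0.009%, where spike-in scaling gave 0.15. Cyp26a1, which breaks down retinoic acid, was not well above background in the control, at 10.4, and read 16.0, 20.9 and 25.3 in the exposed cultures. It was at least 0.72, 1.20 and 1.85 higher, and 0.67 at 0.009% with the spike-ins. Cyp26b1, an enzyme of the same reaction, was bright in all 4 cultures (164, 236, 183 and 145), and its largest difference was 0.62, at 0.003%. With the spike-ins it was -0.20 at 0.006% and -0.79 at 0.009%.

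Cyp21a1, the steroid 21-hydroxylase, was at least 1.15 and 1.49 higher at 0.006 and 0.009%, from a control signal of 9.47 that was not well above background, and the second bound was 0.31 with the spike-ins. Cyp27b1, which makes the active form of vitamin D in the proximal tubule, read 104 in the control and 109, 114 and 88.3, with differences of 0.17, 0.32 and 0.34 that all turned below 0 with the spike-ins. Cyp11b3, of the adrenal steroid subfamily Cyp11b, was well above background at 0.009% alone (13.7). Cyp20a1, a P450 with no known substrate, stayed between -0.12 and -0.17.

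Both epoxide hydrolases were more than 2-fold lower at 0.003% and, in the main scaling, closer to the control at the higher doses. Ephx1, the microsomal enzyme that opens epoxides of foreign compounds, read 97.3 in the control and 40.0, 51.0 and 58.2. Its differences were -1.18, -0.74 and -0.17, but with the spike-ins they were -1.36, -1.29 and -1.35, with no return toward the control. Ephx2, the soluble enzyme that opens fatty acid epoxides, read 32.4 and then 15.0, 23.8 and 27.2, with differences of -1.01, -0.26 and 0.32. At 0.009% Ephx2 was below the control with array median and spike-in scaling, and Ephx1 was 0.01 above it with normexp. At 0.003% normexp took both inside 2-fold, to -0.56 and -0.23.

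No aldehyde dehydrogenase was at least 2-fold higher at any dose. Of 9 compared at 0.003%, 8 lay below the control, beside 10170 of 20895 features. Of 9 at 0.006% all did in the main scaling, beside 9634 of 20677 features, although Aldh1b1 there (-0.01) turned positive with normexp. Some of these values lay inside their spot error, such as Aldh9a1 (-0.05) and Aldh3a1 (-0.12) at 0.003%. Aldh6a1, seen in the control alone, had to lie below it. The class medians were -0.50, -0.58 and -0.26. Aldh1a2, which makes retinoic acid from retinal, read 1289 in the control and 369, 666 and 660. All 3 exposed arrays were lower, the first by more than 3-fold, with log2 differences of -1.70, -0.76 and -0.39. With the spike-ins these differences were -1.88, -1.31 and -1.57.

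Aldh16a1, an atypical member of the family, read 74.8 in the control and 32.4, 28.0 and 36.8, with differences of -1.10, -1.23 and -0.45. It stayed inside 2-fold at each dose with normexp. Aldh2, the mitochondrial enzyme that removes acetaldehyde and lipid aldehydes, was among the brightest members, with signals of 18064, 11834, 12671 and 12150. Its differences were -0.50, -0.32 and 0.00, and the last was -1.18 with the spike-ins. Aldh3a1, a cytosolic enzyme of lipid aldehydes and a known AHR target, read 2206, 1883, 1176 and 997, with differences of -0.12, -0.72 and -0.57. Aldh9a1, which acts on aminoaldehydes, gave the largest difference of the family at 0.009%, -0.88, after -0.05 and -0.52. Aldh1a1 was not well above background on any array.

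The aldo-keto reductases held the largest measured difference of the list. Akr1b8, a reductase of lipid aldehydes and retinal, read 2490.1 in the control and 18935, 14071 and 4833 in the exposed cultures. All 3 exposed arrays were above the control, the lowest dose the most. The log2 differences were 3.03, 2.69 and 1.53 with a spot error of 0.20. With the spike-ins they were 2.85, 2.14 and 0.35. Akr1b1, aldose reductase, which turns glucose into sorbitol and protects renal cells from osmotic stress, read 252, 707, 601 and 254. Its differences were 1.59, 1.44 and 0.59, and the last was -0.60 with the spike-ins.

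Akr7a3, an aflatoxin aldehyde reductase, was not well above background in the control (12.0) and read 50.5, 44.5 and 26.6 in the exposed cultures, at least 2.18, 2.08 and 1.72 higher. Kept through the exposed arrays alone, it had to lie above the control. With normexp the values were 0.58, 0.59 and 0.64, and with the spike-ins the bound at 0.009% was 0.54. Its relative Akr7a2, which reduces succinic semialdehyde, lay below the control and read 1576 in the control against 638, 744 and 769.8. Its differences were -1.20, -0.89 and -0.46, but with the spike-ins they were -1.38, -1.44 and -1.64, with no return toward the control.

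Akr1b7, a gene of the same subfamily as Akr1b8 with a close sequence, was well above background at 0.003% alone, where it read 27.1 against 4.25 in the control, at least 1.51 higher. The Akr1b genes are near copies, and cross-hybridisation of their probes was not tested. Akr1d1, the steroid 5-beta-reductase, was well above background at 0.009% alone, at 14.4, at least 1.06 higher, a bound that was 0 with the spike-ins. Akr1a1, aldehyde reductase, was bright at 8011, 6773, 6697 and 5120, with differences of -0.14, -0.07 and -0.07.

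The 3 alpha class glutathione transferases measured, Gsta1, Gsta2 and Gsta3, conjugate products of lipid peroxidation. In the main scaling they were above the control at all 3 doses, which the filter fixed for Gsta2, kept through the exposed arrays alone. Their promoters are shown because Gsta1 and Gsta3 had like values at every dose, and that of Gstp1, the pi class enzyme, because it holds the same motif and had other values. Sequences are from RefSeq on GRCr8, from 250 bases before the start to 50 after it, 5′ to 3′ along the gene's strand. Capitals mark the letters TGACNNNGC, the core of the antioxidant response element bound by NRF2, on either strand; base positions count from 1 at the 5′ end. The Gsta1 promoter lies at chr9:31216483-31216782 on the minus strand, the Gsta3 promoter at chr9:31154739-31155038 on the plus strand, that of Gsta2 at chr8:88077043-88077342 on the minus strand and that of Gstp1 at chr1:210769656-210769955 on the minus strand.
Gsta1: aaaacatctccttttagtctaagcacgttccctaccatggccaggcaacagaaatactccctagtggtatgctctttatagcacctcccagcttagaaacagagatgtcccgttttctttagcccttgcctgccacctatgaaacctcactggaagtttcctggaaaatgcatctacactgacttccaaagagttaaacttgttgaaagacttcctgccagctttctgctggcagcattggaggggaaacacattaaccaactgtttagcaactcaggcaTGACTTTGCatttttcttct
Gsta3: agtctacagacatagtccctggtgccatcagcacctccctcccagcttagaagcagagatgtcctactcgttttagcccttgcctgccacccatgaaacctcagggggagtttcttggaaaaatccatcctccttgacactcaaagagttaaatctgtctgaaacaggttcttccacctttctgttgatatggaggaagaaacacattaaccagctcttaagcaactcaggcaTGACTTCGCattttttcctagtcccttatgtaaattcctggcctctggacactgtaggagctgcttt
Gsta2: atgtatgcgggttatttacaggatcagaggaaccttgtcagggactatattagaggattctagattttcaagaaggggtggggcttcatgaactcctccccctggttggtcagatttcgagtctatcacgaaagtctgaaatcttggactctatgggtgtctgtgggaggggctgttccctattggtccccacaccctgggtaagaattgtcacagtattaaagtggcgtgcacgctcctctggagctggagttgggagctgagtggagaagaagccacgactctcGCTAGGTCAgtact
Gstp1: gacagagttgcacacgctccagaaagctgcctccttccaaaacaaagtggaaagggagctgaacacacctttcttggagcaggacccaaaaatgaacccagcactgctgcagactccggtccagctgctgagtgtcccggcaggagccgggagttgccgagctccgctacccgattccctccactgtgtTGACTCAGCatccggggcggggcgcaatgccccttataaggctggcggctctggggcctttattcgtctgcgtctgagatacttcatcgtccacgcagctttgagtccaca
The core stood at bases 281 to 289 in Gsta1, 234 to 242 in Gsta3, 190 to 198 in Gstp1 and, on the opposite strand, 287 to 295 in Gsta2. A second Gsta3 start in the table has no such letters in its window. A match is a description of letters and was not tested as a binding site.

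Gsta1 read 651 in the control and 2268, 1877 and 796 at the rising doses. Gsta3 read 113 and then 374, 304 and 138. In both, the culture at 0.003% was the brightest and the one at 0.009% close to the control before scaling. The log2 differences were 1.91, 1.72 and 0.86 for Gsta1 and 1.83, 1.61 and 0.86 for Gsta3, with spot errors of 0.20 and 0.21. At 0.009% both were -0.32 with the spike-ins. Gsta1 and Gsta3 are close in sequence, so shared hybridisation is possible and was not tested. Gsta2 was not well above background in the control, at 4.49, and read 24.4, 16.8 and 12.4, at least 1.36, 0.90 and 0.84 higher; the last bound was 0 with the spike-ins. A second Gsta2 probe was also above background at 0.003 and 0.006%.

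Gstp1 was bright, at 8860 in the control and 6825, 5952 and 4811.0 in the exposed cultures, and its differences were -0.27, -0.38 and -0.31. They were below 0 in all 5 settings. The mu class, cytosolic transferases of many electrophiles, stayed inside 2-fold in the main scaling: its 5 members ranged from -0.48 (Gstm2 at 0.003%) to 0.75 (Gstm7 at 0.009%). With the spike-ins Gstm2, Gstm4 and Gstm5 were -1.13, -1.23 and -1.01 at 0.009%, where 50.8% of all features were at least 2-fold lower. Gstm1 read 1009, 958, 1058 and 988 and differed by 0.03, 0.26 and 0.54, each negative with array median and spike-in scaling. Gstm2 read 2306, 1533, 1720.0 and 1609 and differed by -0.48, -0.23 and 0.05. Of the theta, kappa and omega classes, Gsto2, which can reduce dehydroascorbate, was well above background at 0.009% alone, at 15.1, at least 1.13 higher, a bound that was 0 with the spike-ins. The others lay between -0.44 (Gstt1 at 0.003%) and 0.57 (Gstk1 at 0.009%, negative with the spike-ins). A second, dimmer Gstt2 probe read 0.04 at 0.003%, where the brighter one read -0.40.

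**Figure D3:**
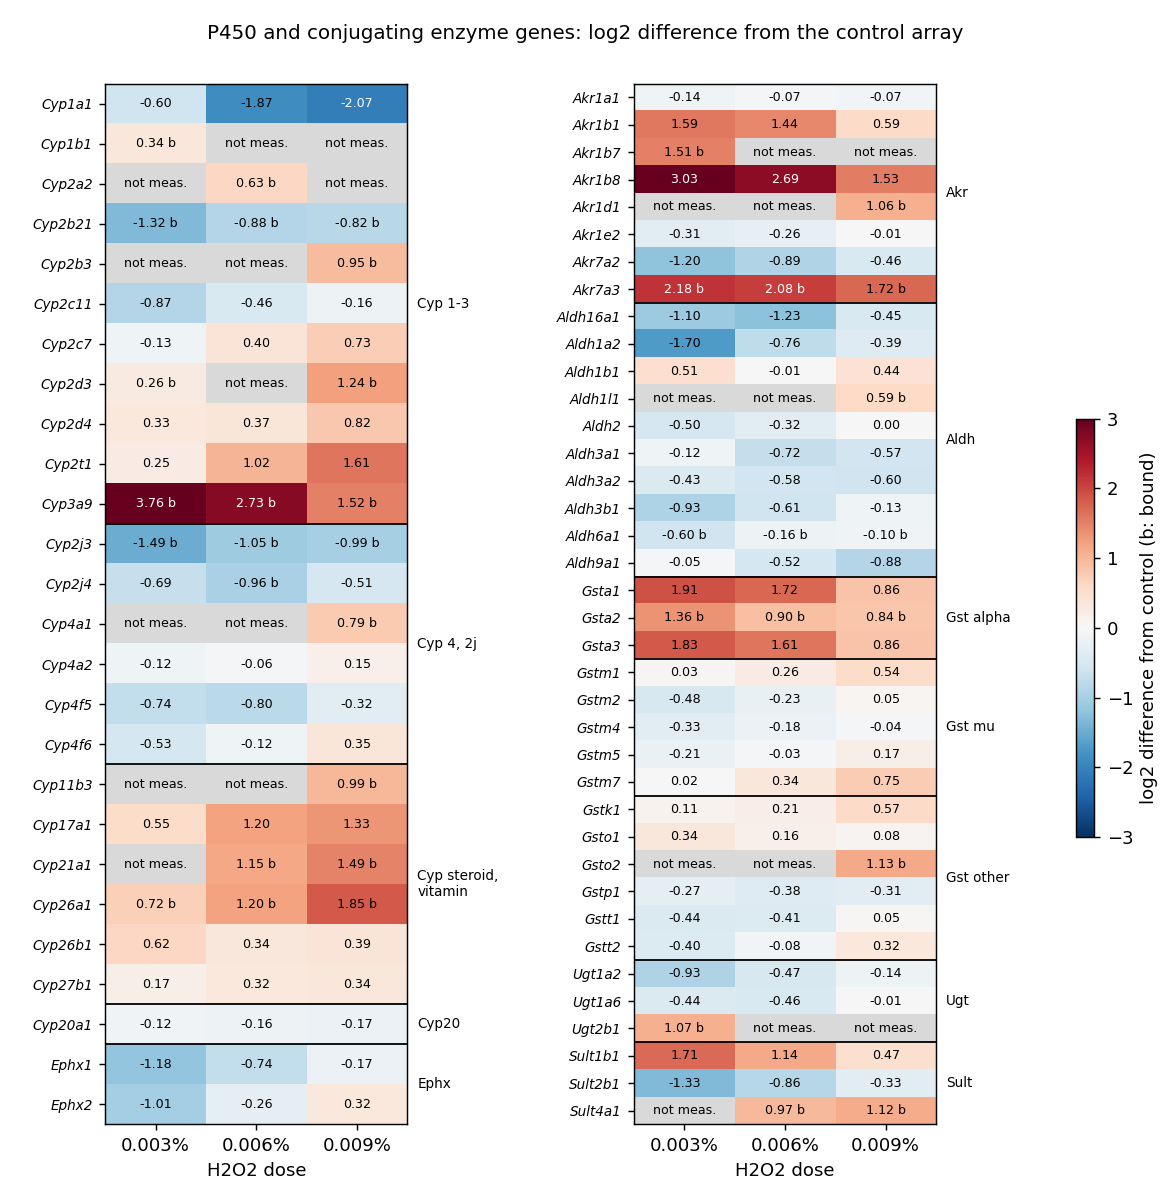
Log2 difference from the control for every measured member (rows, by class) at 0.003, 0.006 and 0.009% H2O2 (columns); b marks a bound and grey a pair in which neither array was well above background. Members at least 2-fold higher at more than a single dose were Akr1b8, Akr7a3, Akr1b1, Gsta1, Gsta3, Cyp3a9, Sult1b1, Cyp17a1, Cyp2t1, Cyp21a1 and Cyp26a1. The mu class transferases stayed inside 2-fold in this scaling.

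Of the UDP-glucuronosyltransferases, which attach glucuronic acid, Ugt1a2 read 1659 in the control and 808, 1048 and 1010.2 in the exposed cultures. It differed by -0.93, -0.47 and -0.14, and with the spike-ins by -1.11, -1.02 and -1.32. Ugt1a6, which conjugates planar phenols, differed by -0.44, -0.46 and -0.01. Ugt2b1 was well above background at 0.003% alone, at 19.98, at least 1.07 higher than the control, with 0.50 under normexp.

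The sulfotransferases split. Sult1b1, which sulfates thyroid hormones and small phenols, read 19.6 in the control and 59.5, 37.9 and 18.3, and differed by 1.71, 1.14 and 0.47, with a spot error of 0.33 at 0.009%. There it turned below the control with array median, spike-in and quantile scaling, and with normexp it was 0.67, 0.47 and 0.45 at the 3 doses. Sult2b1, which sulfates cholesterol, read 121 in the control and 44.9, 58.5 and 64.7, with differences of -1.33, -0.86 and -0.33. With the spike-ins these were -1.51, -1.41 and -1.52, and normexp took the value at 0.003% inside 2-fold, to -0.74. Sult4a1, a brain-type member, was not well above background in the control (2.72) and was at least 0.97 and 1.12 higher at 0.006 and 0.009%, the second of these 0 with the spike-ins. Sult1a1 was not well above background on any array.

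For 51 of the 64 members the RefSeq table held a promoter. The antioxidant core TGACNNNGC was present in the promoters of 11 of them (21.6%), beside 12.1% of all 33469 promoters. GCGTG, the core of the AHR site, was in 20 (39.2%), beside 29.7%, and TGATGNAA, the core of the ATF4 composite site, in 1 (1.96%), beside 3.98%. Both strands were searched in windows of equal length, and matches of different motifs can overlap. The units differ: the member shares count genes with a match at any listed start, and the shares over all count single promoters. The 51 genes held 54 promoters, so a gene with more starts had more windows in which to match. Besides the Gst genes shown, the antioxidant core lay in Gstm5, Gstm7, Ephx1, Aldh16a1, Aldh1a2, Aldh9a1 and Cyp26b1, of which Ephx1, Aldh16a1 and Aldh1a2 were at least 2-fold lower at a dose.

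Among the 43 members well above background on all 4 arrays, the difference from the control was largest in size at 0.003% for 25, at 0.006% for 5 and at 0.009% for 13. The level at 0.009% was above that at 0.003% in 29 and below it in 14, beside 9472 of 17054 features above. With array median scaling 23 of the 43 were above, with quantile normalization 26, with normexp 29 and with the spike-ins 4. From the control upward the level was higher at each further dose in 7 (Cyp17a1, Cyp27b1, Cyp2d4, Cyp2t1, Gstk1, Gstm1 and Gstm7) and lower at each further dose in 4 (Aldh3a2, Aldh9a1, Cyp1a1 and Cyp20a1). The dose of the largest difference, the stepwise orders and the counts under other scalings were not counted over all features. These member counts are therefore not read as traits of the enzymes. Between 0.003 and 0.009% the largest shifts down were in Akr1b8 (-1.50) and Cyp1a1 (-1.47) and the largest up in Cyp2t1 (1.35) and Ephx2 (1.33).

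A straight line over dose, fitted with limma to all 22352 features on the 4 arrays, called none after Benjamini-Hochberg adjustment; the smallest adjusted p was 0.258. At an unadjusted p under 0.05 it held 13 of 64 members, 12 upward and 1 downward, beside 13.8% of all features. Nothing is read from that count, because members seen only at 0.009% had to slope upward, and of the 13 only Cyp17a1, Cyp2t1 and Cyp1a1 were well above background on all arrays. Fitted to the features well above background on all 4 arrays, the line held 4 of 43 members (9.3%) at that level, 2 upward and 2 downward, beside 11.5% of features. With array median scaling 8 members passed upward and 4 downward (18.8% of members, beside 16.6% of all features). With the spike-ins 1 passed upward and 20 downward (32.8% of members, beside 35.1% of all features). No other tool was run. The fitted change of Cyp1a1 over the dose range was -2.24, with a limma adjusted p of 0.258, and it was lower than the control in 3 of 3 exposed cultures.

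The lists of related genes were read by the same rule of 2-fold, against the shares over all features given above (14.9, 14.9 and 16.5% higher and 13.6, 10.5 and 7.4% lower at the 3 doses). For the supply of glutathione, 6 of 13 genes (46.2%) were higher and 1 lower at 0.003%, 4 and 1 of 12 at 0.006%, and 3 and 0 of 13 at 0.009%. With the spike-ins these were 5 and 1, 3 and 3, and 1 and 6, and with normexp 3 and 0, 2 and 0, and 1 and 0. Gclc, the catalytic subunit of the first enzyme of glutathione synthesis, was 2.08, 1.74 and 0.94 above the control, and -0.24 at 0.009% with the spike-ins. Gclm, its modifier subunit, was at least 1.56 higher at 0.003%. Slc3a2, the heavy chain of the cystine transporter, was 3.17, 3.29 and 2.60 higher. Cth, which makes cysteine, was 1.63, 1.76 and 1.37 higher, and Cbs, the step before it, at least 1.85 at 0.009%. Cbs was well above background at 0.009% alone and had to be higher there. With normexp Cth was 0.65, 0.74 and 0.69 higher and Gclc 0.78, 0.64 and 0.53 higher, all inside 2-fold. Slc3a2 was then 3.14, 3.17 and 2.34 higher. With the spike-ins Cth was 0.19 and Cbs 0.67 higher at 0.009%, both inside 2-fold, while Slc3a2 was 1.42 higher. In the 8 lists together Slc3a2 was the only gene at least 2-fold higher at 0.009% with the spike-ins, where 50.8% of all features were at least 2-fold lower. The number lower then was 6 of 13 for glutathione supply, 9 of 12 for electron transfer and haem, 3 of 5 for AHR regulators, 2 of 4 for nuclear receptors, 8 of 13 for other oxidising and reducing enzymes, 4 of 5 for other conjugating enzymes, 7 of 8 for donor supply and 6 of 7 for export.

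Of 12 genes of P450 electron transfer and haem synthesis, 1 was higher and 1 lower at 0.003%, 1 higher at 0.006% and none past 2-fold at 0.009%. Alas1, the first enzyme of haem synthesis, was 1.59, 1.08 and 0.48 above the control, the last negative with array median and spike-in scaling, and Cyb5r3, a reductase of cytochrome b5, differed by -1.23, -0.90 and -0.59. Por, the P450 reductase, differed by -0.53, -0.49 and -0.35, and Cpox, a later enzyme of haem synthesis, by 0.10, -0.32 and -0.60. In the main scaling none of the AHR regulators compared passed 2-fold at a dose. Ahr was not measured, its partner Arnt was at least 0.85 and 0.89 higher at 0.003 and 0.009%, and Nfe2l2, which encodes NRF2, differed by 0.44, 0.64 and 0.44. Of 4 nuclear receptors and partners compared, Nr0b2, a repressor of bile acid and P450 genes, was lower at all 3 doses (-2.82, -2.06 and -1.06). Hnf4a, which drives liver and tubule genes, was 0.44, 0.87 and 1.25 higher, the last 0.07 with the spike-ins, and Rxrb, the partner of several of these receptors, differed by -0.24, -0.35 and -0.76.

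Of the other oxidising and reducing enzymes, 1 of 13 was higher and 3 lower at 0.003%, 1 of 12 and 2 at 0.006%, and 1 of 13 and 2 at 0.009%. Ptgr1, a reductase of prostaglandins and lipid enals, was at least 3.14, 2.61 and 1.87 higher. It was not well above background in the control, so it had to lie above it. With normexp the values were 1.22, 0.99 and 0.87, and with the spike-ins the bound at 0.009% was 0.69. Dhrs3, a retinal reductase, differed by -2.10, -1.74 and -1.19, and Xdh, xanthine dehydrogenase, by -1.57, -1.41 and -1.07. Nqo1, the quinone reductase, differed by 0.73, 0.51 and -0.20.

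None of the other conjugating enzymes was 2-fold higher; 1 of 4 was lower at 0.003%, 2 of 4 at 0.006% and 2 of 5 at 0.009%. The N-acetyltransferases Nat1 and Nat2 differed by -1.50, -1.49 and -1.03 and by -0.80, -1.11 and -1.31. With normexp both stayed inside 2-fold at each dose, at -0.87, -0.83 and -0.52 and at -0.42, -0.52 and -0.34. With array median scaling they were -1.60 and -1.87 at 0.009%. Mgst1, a microsomal glutathione transferase, differed by -0.09, -0.11 and -0.04, and Glyat, the glycine conjugating enzyme, was at least 0.67 higher at 0.009%. In the supply of glucuronic acid and sulfate donors, 1 of 8 was lower at 0.003% (Gusb, beta-glucuronidase, at -1.20) and none passed 2-fold at the other doses. Ugdh, which makes UDP-glucuronic acid, differed by 0.90, 0.80 and 0.20, Slc35b2, a sulfate donor transporter, by -0.71, -0.76 and -0.49, and Bpnt1, which clears the spent donor, by 0.18, -0.13 and -0.34. Papss2 was not measured. Of 7 export genes, 2 were lower at each dose, and 1 was higher at 0.006 and 0.009%. Abcc1, the exporter of glutathione conjugates, differed by -1.26, -1.48 and -1.34, and Abcc4 by -0.18, -0.78 and -1.47. Slc47a1, a cation exporter, was at least 1.28 and 1.27 higher at 0.006 and 0.009%. It was not well above background in the control, so it had to lie above it where compared. Under each of the 4 other settings it stayed inside 2-fold, and with the spike-ins the bound at 0.009% was 0.09.

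Markers of the labelled cell type and of others were read beside these values, as summed scaled levels. Of 13 tubular epithelium markers on the array 9 were measured, and their summed level was 5.99 in the control and 5.86, 5.55 and 5.36. Krt8 carried most of this sum, and other markers differed in direction. Krt18 was 2.22, 2.76 and 3.095 above the control and Krt19 1.64 above it at 0.009%, while Aqp1 and Cdh2 differed by -2.11 and -2.14 at 0.003%. Cdh1 was not well above background in the control, and markers well above background on no array included Epcam and Cldn1. Fibroblast markers were 3 of 6 (Col1a2, Col3a1 and Pdgfrb), at 4.9997 in the control and 3.20, 3.72 and 4.29, with Dcn, Lum and Thy1 well above background on no array. Macrophage markers were 4 of 5, at 5.40 and then 4.76, 4.49 and 4.55, a sum carried by Cd14 (-0.71, -1.10 and -1.06), while Cd68 differed by 0.28, 0.79 and 0.88, the last -0.30 with the spike-ins. Endothelial markers were 1 of 3 and hepatocyte 3 of 5, at -1.75 and then -1.53, -1.04 and -0.62. The part of these levels in the values of the enzymes was not tested.

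The threshold on background left some genes close to its edge. Just inside it lay Aldh1l1, with a highest signal of 10.4, and Cyp4a1, at 11.9, both at 0.009% alone. Just outside lay Cyp8b1 at 13.6, Sult1a1 at 13.0 and Cyp2c6v1 at 12.4, which the scanner software did not call well above background on any array. Of the 13 members seen on a single array, 3 were seen in the control (Aldh6a1, Cyp2b21 and Cyp2j3), 3 at 0.003% (Akr1b7, Cyp1b1 and Ugt2b1), 1 at 0.006% (Cyp2a2) and 6 at 0.009%, and a member seen only where it is bright had to differ there.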

How the data were processed

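Labelled RNA (Cy3) of 4 cultures was hybridised to 4 single-colour arrays and scanned by the authors. Per the file headers, Agilent Feature Extraction 10.7.3.1 gave each spot's signal as an intensity on a linear scale, background subtracted but not scaled across arrays. The table of values they deposited is a linear ratio of signal to array median (equal within 1e-05 of the value in 100% of probes) and served as an alternative. How much RNA and spike-in went into each labelling is not given in the sources.

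Outlier spots were left out (76 to 99 an array), repeated spots averaged, and signals scaled to the 75th percentile and taken as log2. Symbols came from RefSeq accessions on GRCr8 for 10834 of 41007 probes; the array was annotated on rn4, so the positions printed are those of the RefSeq promoters on GRCr8 alone. A gene took its brightest probe; unnamed probes were collapsed by identifier. For a bound, the dim side took its own value or, if higher, the lowest signal that the software called well above background on that array. A 2-fold difference is a rule of size, not a test. The trend used limma 3.58.1 in R 4.3.3 (2 residual degrees of freedom, Benjamini-Hochberg 0.05) and was tested on simulated data. Normexp (offset 50) used the median signals, since the files used hold no mean signal. The number of arrays limits the precision.

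Members and lists were chosen with earlier results of these data known. Genes given with values are members past 2-fold at a dose, the largest of each family at 0.009%, a set always named, and the 3 largest of each list; others are given by counts or range, and a few more were named after their values were seen. Gsta4 and Aldh18a1, in that set, matched no probe. Tables were handled with Python 3.11.15.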

Additional observations from a re-analysis of the deposited data

How the results depend on the processing

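With 1 array per dose no difference has a replicate check, and a culture, its slide position and its dose cannot be told apart. Dim probes give bounds only, and the scaling decides much at 0.009%. No paired analysis was possible because each dose has 1 array. No alternative turned the direction of a gene at a dose where it was past 2-fold, although the bounds of Akr1d1, Gsto2 and Sult4a1 at 0.009% went to 0 with spike-ins, and genes past 2-fold at one dose, such as Akr1b1, Gsta1, Gsta3 and Sult1b1, turned below the control at 0.009% with spike-ins. The trend called 0 members in every setting run. The cause of the shifts below was not tested, apart from the filters, which alter the genes counted.

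At 0.003%, members at least 2-fold higher numbered 5 with normexp, 5 when both arrays had to be well above background and 20 with no filter; lower members numbered 2 with normexp; the median was 0.11 with no filter. At 0.006%, higher members numbered 6 with array median scaling, 5 with spike-ins, 7 with quantile normalization, 5 with normexp, 6 with the deposited table, 7 with both arrays above background and 27 with no filter. Lower members there numbered 11, 17, 5, 1 and 11 in the first 5 of these and 5 with no filter, and the median was -0.41 with array median scaling and the deposited table, -0.65 with spike-ins and 0.48 with no filter. At 0.009%, higher members numbered 3 with array median scaling, 0 with spike-ins, 5 with quantile normalization, 1 with normexp, 3 with the deposited table, 3 with both arrays above background and 41 with no filter. Lower members there numbered 9 with array median scaling, 29 with spike-ins, 4 with quantile normalization, 9 with the deposited table and 5 with no filter. The median at 0.009% was -0.24 with array median scaling and the deposited table, -0.86 with spike-ins, 0.046 with quantile normalization, 0.050 with both arrays above background and 0.58 with no filter. Averaging a gene's probes moved none of these counts or medians past the limit of 1.5 times or the spot error. The shares over all features under the other scalings and normexp stand beside the member counts in the Results. Those under the filters are not given, so the member counts there are not read as particular to the enzymes.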
